A study of Homo sapiens with 6 samples.

Results

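The genes described here build and supervise the machine that separates chromosomes in mitosis. They are 47 genes, chosen by symbol, of the centromere and kinetochore, the spindle checkpoint, the chromosomal passenger complex, the spindle, the anaphase-promoting complex (APC/C), cohesin and condensin. Of these, 35 had a probe set named with their symbol among 14883 genes with a symbol, and each of the 35 had 1 probe set. The other 12 (NUF2, SPC24, SPC25, CENPE, CENPF, TPX2, DLGAP5, ASPM, UBE2C, NCAPD2, NCAPG and NCAPH) were not analysed here. The cells were SK-N-BE(2), a human neuroblastoma line in common use, and each of 6 samples had its own Affymetrix array. The cells had been infected with a pLKO lentivirus carrying a hairpin against BRG1 (shBRG1, 3 samples), the ATPase of the SWI/SNF chromatin remodeller encoded by SMARCA4, or the matching pLKO virus with a non-silencing hairpin (NSC, 3 samples). RNA was taken 48 h after infection, both groups having been exposed to a lentivirus, and 200 ng of total RNA went onto each array. The labels name 1 BRG1 hairpin and 1 cell line. They call the infections triplicates without saying that the cultures were kept apart, so a p-value below reflects only how far these 6 samples scatter, and that scatter may be technical. The sample titles spell the hairpin shRG1, and its lentivirus label spells it shBRG1.

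The kinetochore is the protein plate that joins a chromosome to spindle microtubules. Its inner layer sits on chromatin marked by the histone variant CENP-A, and its outer layer, built around the NDC80 complex, binds the microtubule. The spindle checkpoint holds the APC/C, a ubiquitin ligase, inactive until every kinetochore is attached, after which securin is destroyed and separase cuts the cohesin rings that hold sister chromatids. Condensin, by contrast, compacts each chromatid. Most of these genes are transcribed in G2 and M phase, so in bulk RNA fewer cells in those phases and less RNA per cell cannot be told apart.

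The deposited values are log2 expression values, and array medians lay between 3.77 and 3.84. Pearson correlations across probe sets were 0.9907 to 0.9925 within groups and 0.9860 to 0.9881 between groups. All 35 measured members had a mean above that of the median gene. SMARCA4 had no named probe set, so the depletion of BRG1 was not analysed here and samples are described by their labels. All 6 measured sympathetic neuroblast markers were above the median gene, with DBH at 11.04 ± 0.02 in shBRG1 and 10.96 ± 0.08 in NSC (SD, n = 3 each). Their mean lay between 9.15 and 9.17 in shBRG1 and between 9.29 and 9.33 in NSC, and 3 of the 6 were called lower in shBRG1: PHOX2A (log2 change -0.51, adjusted p = 0.0033 by limma), ISL1 (-0.44, adjusted p = 0.0086) and HAND2 (-0.38, adjusted p = 0.0086). These 3 markers moved in the same direction as the members that fell. The other 3 had changes above 0, between 0.08 and 0.21, that did not pass. Of those, 1 was higher at an unadjusted p under 0.05 by limma. With dim genes left out, and with trend and robust options, 1 neuroblast marker was called higher. The mean over 6 measured Schwann and glial markers lay between 4.001 and 4.03 in shBRG1 and between 4.18 and 4.21 in NSC. Of these 6, 5 were dimmer than the median gene and 1 was called lower, with 3 lower at an unadjusted p under 0.05 (limma). The number called lower was 0 without any 1 array other than shBRG1 replicate 2. Over 3 measured immune markers the mean lay between 4.51 and 4.72 in shBRG1 and between 4.66 and 4.70 in NSC. Of the fibroblast markers, 2 were measured and both were higher in shBRG1, LUM at 8.63 ± 0.14 against 8.24 ± 0.08 in NSC and DCN at 5.39 ± 0.05 against 4.96 ± 0.11 in NSC, the LUM call ending without shBRG1 replicate 1 or 2 or NSC replicate 2 or 3 (adjusted p up to 0.081). No measured marker can be called absent, since the arrays have no level that stands for 0, and the part of these markers in the results was not tested.

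In shBRG1 cells the measured members of the passenger complex (3 of 3) and of condensin and chromosome structure (4 of 4) were called lower. That call was made for 7.19% of all genes. AURKB, the passenger kinase and not a member, had a change of 0.16 that did not pass (adjusted p = 0.20 by limma). Also called lower were 3 of 7 inner kinetochore, 2 of 3 spindle, 1 of 6 checkpoint and 1 of 7 cohesin and shugoshin members. Of 3 APC/C, securin and separase members, 0 were called lower (limma, with 1 lower at an unadjusted p under 0.05). Differences between complexes were not tested. Of the 7 passenger and chromosome-structure calls, those of SMC2, TOP2A, INCENP and CDCA8 ended when single arrays were omitted and when every probe set was tested. At an adjusted p of 0.05, 14 of the 35 measured genes fell, 1 rose and 20 did not pass (limma, p-values adjusted by Benjamini and Hochberg over all 14883 genes). Over all genes, 17% passed, 7.19% lower and 9.78% higher. These shares include 7441 genes dimmer than the median gene, and no member is among those. With those dim genes left out, 16 of the 35 members were lower and 1 higher, beside 1224 lower and 1977 higher of all remaining genes. The remaining genes are the 14883 less the 7441 dim ones, so their shares are larger than 7.19% lower and 9.78% higher. After cyclic loess between arrays the share of calls over all genes that were higher was 47.7%, against 57.6% in the deposited values. The members' counts were 16 lower and 0 higher after cyclic loess, with 1 higher at an unadjusted p under 0.05. CENPN, a kinetochore protein that recognises the CENP-A nucleosome, fell most, 2.91-fold, and the remaining falls were between 1.19-fold and 1.45-fold lower. The condensin subunit SMC4 (log2 change -0.54), the mitotic kinase AURKA (-0.51), the proliferation antigen MKI67 (-0.50) and the kinetochore proteins CENPI (-0.46) and CENPK (-0.45) followed. The kinetochore protein CENPH was the member that rose (0.26).

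The median change of the 35 members was -0.12, against 0.01 over all genes, and -0.12 when CENPN was left out, a check added after its value was seen. The change was negative in 30 of 35 members and in 7271 of 14883 genes. All 3 shBRG1 values lay below all 3 NSC values for 17 members, which is the case for 15.3% of all genes, and above them for 3 members, which is the case for 20.3% of all genes. Each shBRG1 array was on the low side. Relative to each gene's mean of the 6 arrays, the median member stood at -0.05, -0.06 and -0.08 on shBRG1 replicates 1, 2 and 3, against 0.11, 0.04 and 0.08 on NSC replicates 1, 2 and 3, while the median of all genes stayed between -0.02 and 0.02 on every array. Calls of 8 members (CENPN, SMC4, MKI67, CENPI, CENPK, AURKA, NUSAP1 and BIRC5) held under every alternative at the threshold of 0.05 and without any 1 of the 6 arrays. The count of members lower was 9 without any 1 of the 3 shBRG1 arrays or without NSC replicate 1 or 3, and 10 without NSC replicate 2. Over all genes the count lower also dropped, from 1070 with all 6 arrays to between 694 and 859 without any 1 array. The count of members higher was 0 without any 1 of the 6 arrays by limma, with 1 at an unadjusted p under 0.05 in each case.

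**Figure D1:**
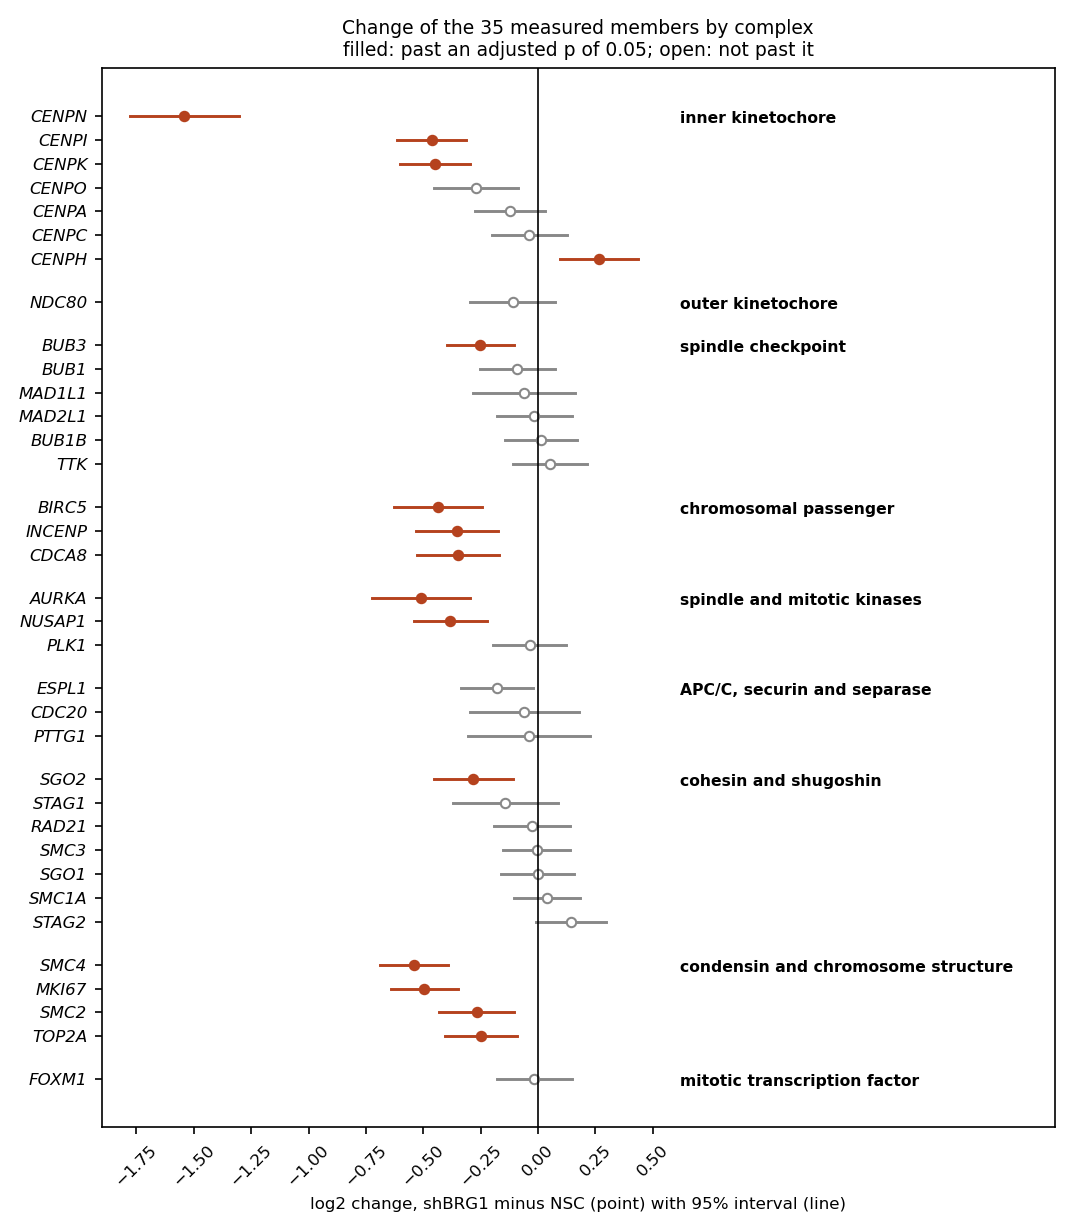
Log2 change of the 35 measured members, shBRG1 minus NSC, by complex (point) with its 95% interval from limma (line), filled where the adjusted p was under 0.05 and open otherwise. CENPN lies at -1.54, apart from all others, the 3 chromosomal passenger genes and the 4 genes of condensin and chromosome structure are all to the left of 0, and the intervals of 5 of 6 checkpoint genes and 6 of 7 cohesin and shugoshin genes cross 0.

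Promoters of 6 members are shown so that genes that fell can be set beside genes that did not pass the test. G2/M genes are known for 2 short promoter elements, the CHR (cell cycle genes homology region), TTTGAA, bound by the MuvB core of the DREAM and MYB-MuvB complexes, and the CCAAT box, bound by NF-Y. The windows are from RefSeq on GRCh38.p14, run from 250 bases before to 50 bases after the gene start and are written in the direction of the gene, with TTTGAA and CCAAT on either strand in capitals. CENPN lies at chr16:81006964-81007263 on the plus strand, CENPK at chr5:65563119-65563418 on the minus strand, MKI67 at chr10:128126374-128126673 on the minus strand, NUSAP1 at chr15:41332631-41332930 on the plus strand, PLK1 at chr16:23678639-23678938 on the plus strand and CDC20 at chr1:43358731-43359030 on the plus strand. The first 4 fell in shBRG1, and PLK1 and CDC20 were not past the threshold.
CENPN: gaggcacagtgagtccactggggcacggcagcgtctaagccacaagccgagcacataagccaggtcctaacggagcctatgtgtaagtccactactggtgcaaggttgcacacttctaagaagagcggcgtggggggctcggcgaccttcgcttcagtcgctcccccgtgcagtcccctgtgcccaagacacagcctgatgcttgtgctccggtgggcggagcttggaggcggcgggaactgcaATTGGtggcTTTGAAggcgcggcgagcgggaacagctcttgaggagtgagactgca
CENPK: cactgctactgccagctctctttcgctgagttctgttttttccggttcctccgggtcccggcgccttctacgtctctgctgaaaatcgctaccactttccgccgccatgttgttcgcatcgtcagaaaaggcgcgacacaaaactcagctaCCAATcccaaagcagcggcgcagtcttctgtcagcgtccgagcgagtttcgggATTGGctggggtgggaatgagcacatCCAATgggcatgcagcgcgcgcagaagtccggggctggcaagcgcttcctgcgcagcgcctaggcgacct
MKI67: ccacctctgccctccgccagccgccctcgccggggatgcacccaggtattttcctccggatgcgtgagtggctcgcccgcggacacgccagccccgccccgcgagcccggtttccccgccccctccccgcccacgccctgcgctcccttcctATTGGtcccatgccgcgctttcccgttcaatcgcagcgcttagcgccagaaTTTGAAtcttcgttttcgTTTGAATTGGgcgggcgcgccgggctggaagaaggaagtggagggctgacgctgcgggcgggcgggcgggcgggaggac
NUSAP1: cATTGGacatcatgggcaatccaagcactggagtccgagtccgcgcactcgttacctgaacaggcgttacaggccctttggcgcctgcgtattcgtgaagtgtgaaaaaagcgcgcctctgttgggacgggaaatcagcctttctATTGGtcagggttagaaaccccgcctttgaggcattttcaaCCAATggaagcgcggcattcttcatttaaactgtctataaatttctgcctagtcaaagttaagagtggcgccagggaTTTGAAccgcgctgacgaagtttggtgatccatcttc
PLK1: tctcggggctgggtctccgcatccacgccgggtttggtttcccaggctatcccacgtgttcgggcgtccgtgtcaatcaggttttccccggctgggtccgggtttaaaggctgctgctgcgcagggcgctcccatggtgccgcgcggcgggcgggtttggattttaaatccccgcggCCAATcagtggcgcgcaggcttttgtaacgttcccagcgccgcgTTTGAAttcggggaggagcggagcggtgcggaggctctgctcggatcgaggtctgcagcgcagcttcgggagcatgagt
CDC20: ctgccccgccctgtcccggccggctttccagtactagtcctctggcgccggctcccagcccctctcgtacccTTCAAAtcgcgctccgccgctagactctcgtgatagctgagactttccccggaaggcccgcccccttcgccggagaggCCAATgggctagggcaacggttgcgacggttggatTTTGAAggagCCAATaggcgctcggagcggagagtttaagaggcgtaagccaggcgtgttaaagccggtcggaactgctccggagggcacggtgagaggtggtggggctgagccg

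In these windows CENPN has TTTGAA at bases 4 to 9 after the start, with an inverted CCAAT just before it at -6 to -2. MKI67 has TTTGAA at -47 to -42 and again at -29 to -24, where it shares letters with an inverted CCAAT at -24 to -20. PLK1 also has TTTGAA at -29 to -24, and CDC20 has it at -65 to -60 and inverted at -178 to -173. CENPK has no match to TTTGAA in this window and 3 to CCAAT. The letters therefore stand in promoters of genes that fell and of genes that did not pass the test.

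RefSeq promoters with 1 start were found for 32 of the 47 genes, and 6 genes with several starts were left out of the counts. A TTTGAA match beginning within 50 bases of the start, on either strand, was present in 5 of 8 such promoters of members that fell (62.5%) and in 7 of 14 of members not past the threshold, against 279 of 8084 over all genes tested (3.45%). Anywhere in the window it was present in 6 of 8 and 10 of 14, against 12.0% over all genes tested. CCAAT was present in 7 of 8 promoters of members that fell and 9 of 14 of members not past the threshold, against 36.7% over all genes tested. CENPI, which fell, had 0 matches to TTTGAA and 0 to CCAAT in its window. A match is a description of these letters and not of binding.

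**Figure D2:**
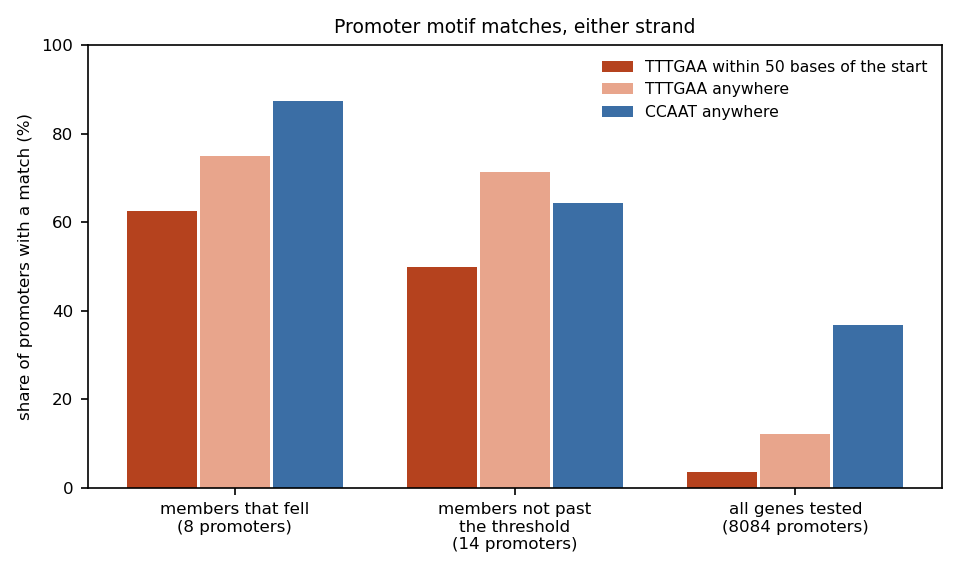
Share of promoters with a match, in percent, for TTTGAA beginning within 50 bases of the start, TTTGAA anywhere in the window and CCAAT anywhere, on either strand, in 8 promoters of members that fell, 14 of members not past the threshold and 8084 of all genes tested. The bars of both member groups stand well above those of all genes for TTTGAA (62.5% of members that fell against 3.45% of all genes near the start).

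The inner kinetochore, or constitutive centromere-associated network, holds 7 members, with 3 calls lower, 1 higher and 3 genes that did not pass. CENPN had log2 values of 6.75, 6.85 and 6.63 in shBRG1, against 8.33, 8.11 and 8.42 in NSC. The groups were more than 1 log2 unit apart at their nearest values, and the change was -1.54 (SE 0.10, 95% interval -1.78 to -1.30, adjusted p = 0.00027). This was the thirteenth largest fall of all genes tested, and the adjusted p stayed between 2.6e-07 and 0.0034 over 14 alternatives. CENPN partly overlaps the non-coding gene CENPN-AS1, which was not analysed here.

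CENPI and CENPK encode subunits of the CENP-H/I/K assembly, in which CENP-M also takes part. CENPI had 8.05, 8.12 and 8.04 in shBRG1, against 8.54, 8.51 and 8.55 in NSC (change -0.46, SE 0.06, adjusted p = 0.0035). CENPK had 7.47, 7.44 and 7.49 in shBRG1, against 7.96, 7.92 and 7.86 in NSC (change -0.45, SE 0.07, adjusted p = 0.0042). Both were lower on every shBRG1 array, with a spread within groups of at most 0.05 (SD). CENPH, whose product joins the same assembly, had 6.88, 7.03 and 6.99 in shBRG1, against 6.71, 6.64 and 6.75 in NSC. The groups did not overlap and the change was in the other direction, 0.26 (SE 0.07, adjusted p = 0.045). The CENPH call was lost without any 1 of the 6 arrays (adjusted p 0.056 to 0.13) and after centring or cyclic loess.

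The other inner kinetochore members were not past the threshold. CENPO, of the CENP-O/P/Q/U/R group, had 7.654, 7.675 and 7.643 in shBRG1, against 7.992, 7.789 and 8.001 in NSC (change -0.27, adjusted p = 0.056). Its 3 shBRG1 values lay below NSC, and without NSC replicate 2, the lowest NSC array, it passed with an adjusted p of 0.031. CENPA, the centromeric histone H3 variant itself, had a change of -0.12 (95% interval -0.28 to 0.03, adjusted p = 0.26), with all shBRG1 values (7.79 to 7.90) below NSC (7.94 to 7.98). CENPC, the scaffold that links centromeric chromatin to the outer layer, had a change of -0.04 (-0.20 to 0.13) with overlapping groups.

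Over all genes 7.19% were called lower and 9.78% higher. Among 11 other measured genes of the inner kinetochore and of CENP-A loading, 5 were called lower and 2 higher. Without shBRG1 replicate 2 or 3 these counts were 2 and 1, since the calls of CENPQ, HJURP and OIP5 (lower) and MIS18A (higher) ended. Without shBRG1 replicate 1 they were 3 and 1, and without NSC replicate 1 or 3 they were 3 and 2. CENPU, a partner of CENP-O and a docking site for PLK1, averaged 7.40 ± 0.06 in shBRG1 and 7.97 ± 0.03 in NSC (SD, n = 3 each, limma change -0.57, adjusted p = 0.0020). CENPP, of the same group, went up, with 8.37, 8.56 and 8.58 in shBRG1, against 8.09, 8.01 and 7.95 in NSC (change 0.49, adjusted p = 0.0077). CENPT, which recruits the NDC80 complex, was also lower (change -0.35, adjusted p = 0.011). The calls of CENPU, CENPP and CENPT held without any 1 of the 6 arrays.

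**Figure D3:**
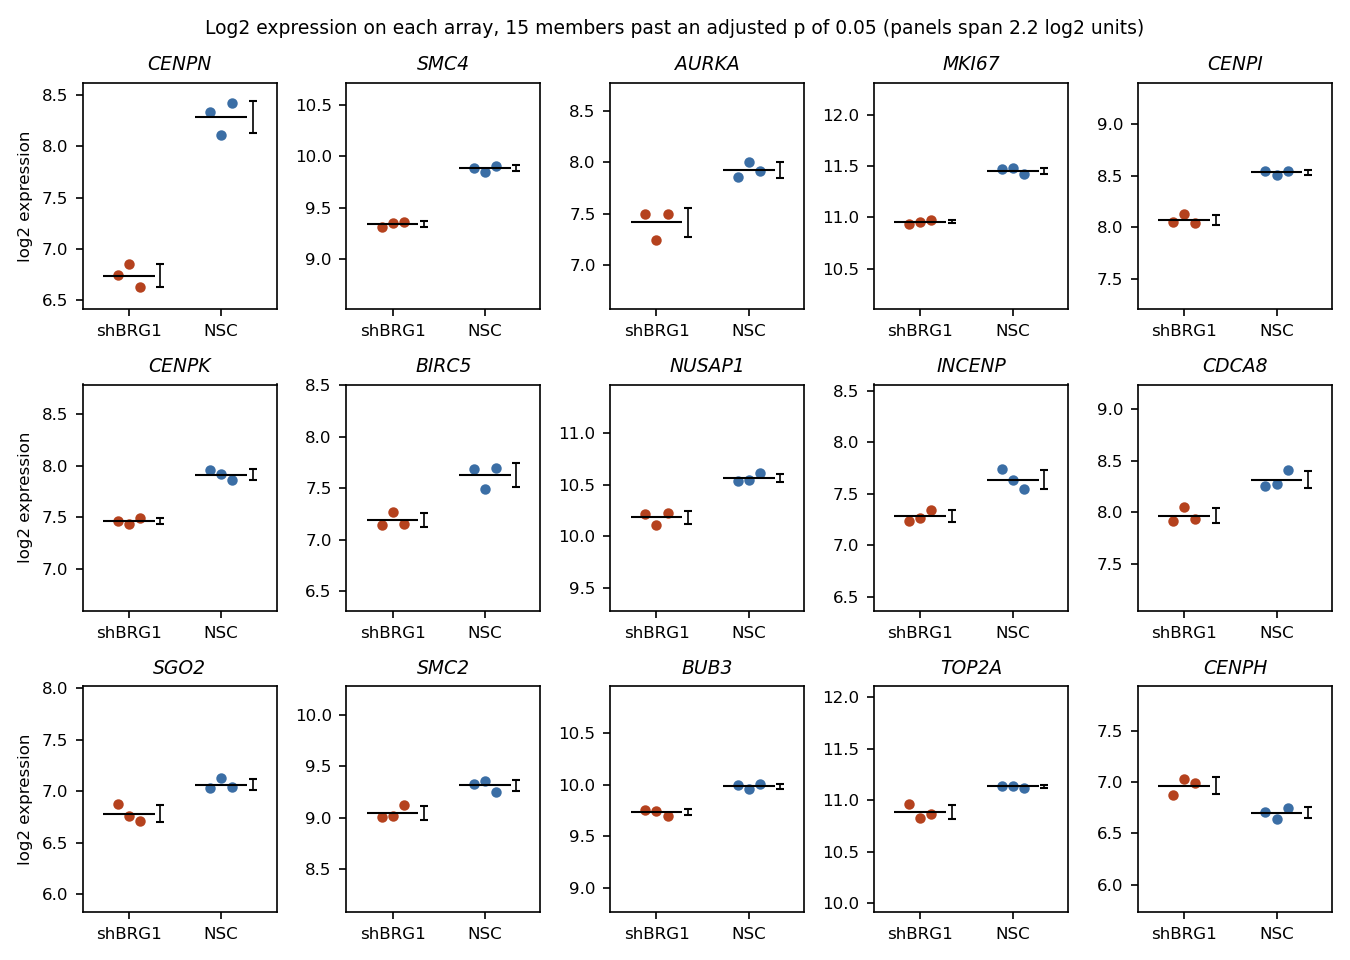
Log2 expression on each array (points) of the 15 members past an adjusted p of 0.05, shBRG1 left and NSC right in every panel, with the group mean (line) and SD (bar, n = 3 each), in order of change. Every panel spans the same number of log2 units, so that the drop of CENPN (mean 6.74 in shBRG1, 8.28 in NSC) can be compared with the smaller shifts. In each of the 15 panels the groups do not overlap, but these genes were picked by their adjusted p in the same values. Over all genes, 35.5% have groups that do not overlap.

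Of the outer kinetochore, NDC80, the microtubule-binding subunit for which the complex is named, was the 1 member measured. It had 6.96, 7.16 and 7.11 in shBRG1, against 7.18, 7.13 and 7.25 in NSC, with overlapping groups and a change of -0.11 (95% interval -0.29 to 0.07, adjusted p = 0.41). Of 7 other outer kinetochore genes measured, 4 fell and 0 rose (limma, with 5 lower and 0 higher at an unadjusted p under 0.05). The falls are 57.1% of this list, beside 7.19% lower and 9.78% higher over all genes. They numbered 3 without shBRG1 replicate 1 or 3 or NSC replicate 1 or 3, where the SKA1 call ended (adjusted p up to 0.074). KNL1, the platform for the BUB proteins, had 8.44, 8.48 and 8.47 in shBRG1, against 8.96, 8.83 and 8.93 in NSC (change -0.45, adjusted p = 0.0049). SKA2, of the microtubule-tracking SKA complex, had a change of -0.49 (adjusted p = 0.0042), and KNTC1, a dynein-recruiting protein of the corona, -0.44 (adjusted p = 0.0041).

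Of the 6 spindle checkpoint genes, 1 fell and 5 were not past the threshold. BUB3, a partner of BUB1 and BUBR1, had 9.75, 9.75 and 9.70 in shBRG1, against 10.00, 9.96 and 10.00 in NSC (change -0.25, SE 0.06, adjusted p = 0.032). The groups were separate, but the difference was small, and the call was lost without any 1 of the 6 arrays (adjusted p 0.065 to 0.10) and after centring (range over all alternatives 0.00029 to 0.11). BUB1, a checkpoint kinase, had a change of -0.09 (95% interval -0.25 to 0.07). BUB1B, which encodes BUBR1, had a change of 0.01 (-0.15 to 0.17), and MAD2L1, the subunit that is handed to CDC20, one of -0.02 (-0.18 to 0.15). For TTK, the kinase MPS1 that starts the signal, the change was 0.05 (-0.11 to 0.21), and for MAD1L1, the kinetochore anchor of MAD2, -0.06 (-0.28 to 0.16). In all 5 the groups overlapped and the intervals left room for changes of up to about 0.28 on the log2 scale.

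The chromosomal passenger complex corrects faulty attachments through the kinase AURKB, and its 3 members here, the non-catalytic subunits, all fell. BIRC5, which encodes survivin, had 7.14, 7.27 and 7.16 in shBRG1, against 7.69, 7.49 and 7.70 in NSC (change -0.44, SE 0.08, adjusted p = 0.011). INCENP, the scaffold, had 7.24, 7.27 and 7.34 in shBRG1, against 7.74, 7.63 and 7.54 in NSC (change -0.35, SE 0.08, adjusted p = 0.019). CDCA8, which encodes borealin, had 7.91, 8.05 and 7.93 in shBRG1, against 8.26, 8.28 and 8.41 in NSC (change -0.35, SE 0.08, adjusted p = 0.021). The 3 changes lay between -0.44 and -0.35, and no shBRG1 value reached the NSC range. INCENP lost its call without shBRG1 replicate 1 or 2 or NSC replicate 1 or 2 (adjusted p 0.053 to 0.068), and CDCA8 without shBRG1 replicate 1 or 3 or NSC replicate 3 (0.064 to 0.071). AURKB itself had 8.84, 8.98 and 8.77 in shBRG1, against 8.72, 8.71 and 8.67 in NSC, a change of 0.16 that did not pass (adjusted p = 0.20). HASPIN, the kinase whose histone mark recruits the complex, fell (-0.32, adjusted p = 0.026), a call lost without shBRG1 replicate 1 or 3 or NSC replicate 1 or 3 (0.062 to 0.082). TRIP13, which disassembles the checkpoint complex, was at the threshold (-0.26, adjusted p = 0.0497) and kept its call when NSC replicate 2 was omitted (0.0491) but not when any other array was (0.093 to 0.15).

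Of the spindle and mitotic kinase genes, 3 of 6 were measured and 2 fell. AURKA, the kinase of spindle poles, which in neuroblastoma is known to stabilise the MYCN protein, had 7.499, 7.248 and 7.494 in shBRG1, against 7.854, 8.002 and 7.914 in NSC (change -0.51, SE 0.09, adjusted p = 0.0092). NUSAP1, a microtubule-bundling protein, had 10.21, 10.12 and 10.23 in shBRG1, against 10.54, 10.55 and 10.61 in NSC (change -0.38, SE 0.07, adjusted p = 0.0092). Both were lower on all 3 shBRG1 arrays. PLK1, the kinase of mitotic entry and centrosome maturation, had 10.65, 10.69 and 10.67 in shBRG1, against 10.74, 10.62 and 10.76 in NSC, with a change of -0.04 (95% interval -0.20 to 0.12, adjusted p = 0.78). FOXM1, a transcription factor that acts with the MuvB complex on G2/M promoters, likewise overlapped, with 9.09, 9.17 and 9.06 in shBRG1 and 9.16, 9.04 and 9.15 in NSC (-0.02, -0.18 to 0.15).

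Among 10 other genes of the spindle and of mitotic entry, 5 fell and 1 rose. HMMR, a spindle assembly factor, had 7.78, 7.86 and 7.76 in shBRG1, against 8.65, 8.62 and 8.58 in NSC (change -0.81, adjusted p = 0.00051). CCNB1, the mitotic cyclin, had 8.40, 8.56 and 8.41 in shBRG1, against 8.96, 8.96 and 8.94 in NSC (change -0.49, adjusted p = 0.0042), and CKAP2, a spindle protein, had a change of -0.50 (adjusted p = 0.0064). Their shBRG1 values were all below NSC.

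No measured member of the APC/C, securin and separase group passed (limma, with 1 lower and 0 higher at an unadjusted p under 0.05). ESPL1, which encodes separase, had 7.06, 7.09 and 6.97 in shBRG1, against 7.23, 7.18 and 7.24 in NSC. The groups did not overlap, and the change of -0.18 had a 95% interval of -0.34 to -0.02 and an adjusted p of 0.12. CDC20, the mitotic activator of the APC/C, had 8.62, 8.68 and 8.56 in shBRG1 and 8.71, 8.48 and 8.85 in NSC (change -0.06, -0.30 to 0.18). PTTG1, which encodes securin, had 5.47, 5.48 and 5.36 in shBRG1 and 5.67, 5.52 and 5.24 in NSC (change -0.04, -0.31 to 0.22), and its near-identical copies, PTTG2 and PTTG3P, could share signal with it. For CDC20 and PTTG1 the NSC arrays spread more widely than the shBRG1 arrays, and the shBRG1 values lay within their range.

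Of 17 other measured APC/C genes, 3 were called lower and 3 higher (17.6% each, beside 7.19% lower and 9.78% higher over all genes). The rises (ANAPC1, ANAPC5 and ANAPC16) numbered 0 after cyclic loess, with 3 at an unadjusted p under 0.05 by limma. They numbered 1 without shBRG1 replicate 1 and 0 without any 1 of the other 5 arrays, with 3 to 5 at an unadjusted p under 0.05. The falls numbered 2 without any 1 of the 6 arrays, FBXO5, an APC/C inhibitor, being the call that ended. CDC27, a core subunit that binds the activators, had 8.57, 8.61 and 8.52 in shBRG1, against 9.29, 9.29 and 9.36 in NSC (change -0.75, adjusted p = 0.00065). The mean of its 2 probe sets gave a change of -0.45. UBE2S, the enzyme that extends ubiquitin chains on APC/C substrates, had 7.04, 6.85 and 7.13 in shBRG1, against 7.81, 7.68 and 7.59 in NSC (change -0.68, adjusted p = 0.0039). ANAPC5, another subunit, had a change of 0.28 (adjusted p = 0.036, and 0.066 to 0.10 without any 1 array).

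Of 7 genes of cohesin and the shugoshins, which protect it, 1 fell and 6 did not pass, the ring subunits among them. SMC3 had 10.53, 10.58 and 10.53 in shBRG1, against 10.52, 10.56 and 10.57 in NSC (change -0.01, 95% interval -0.15 to 0.14). SMC1A, its partner in the ring, had a change of 0.04 (-0.10 to 0.18), and RAD21, the subunit that separase cuts, one of -0.03 (-0.19 to 0.14). STAG2 had 8.97, 8.99 and 8.93 in shBRG1, against 8.85, 8.85 and 8.76 in NSC, so that the groups were separate, with a change of 0.14 (-0.01 to 0.30, adjusted p = 0.19). STAG1, its paralogue, had a change of -0.14 (-0.37 to 0.09) with overlapping groups. The gene that passed was the shugoshin SGO2, which shields centromeric cohesin and had 6.88, 6.76 and 6.71 in shBRG1, against 7.03, 7.12 and 7.04 in NSC (change -0.28, SE 0.07, adjusted p = 0.038). Its call held when shBRG1 replicate 1 was omitted (0.048), but not when any other array was (0.076 to 0.12) or after centring. SGO1, the mitotic protector, had a change of -0.0025 (-0.16 to 0.15).

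Of 7 measured genes that load, release or acetylate cohesin, 1 rose and 0 fell (limma, also 1 and 0 at an unadjusted p under 0.05). The rise is 14.3% of this list, beside 9.78% higher and 7.19% lower over all genes. MAU2, a subunit of the cohesin loader, had 7.55, 7.59 and 7.56 in shBRG1, against 7.13, 7.12 and 7.29 in NSC (change 0.39, adjusted p = 0.011). NIPBL, its partner, had a change of -0.15 (adjusted p = 0.19), and the acetyltransferase ESCO2 one of -0.16 (adjusted p = 0.17).

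All 4 measured members of condensin and mitotic chromosome structure fell, while the condensin I subunits NCAPD2, NCAPG and NCAPH were not analysed here. SMC4, an ATPase shared by condensin I and II, had 9.31, 9.36 and 9.36 in shBRG1, against 9.89, 9.85 and 9.91 in NSC (change -0.54, SE 0.06, adjusted p = 0.0019). SMC2, its partner, had 9.001, 9.012 and 9.121 in shBRG1, against 9.328, 9.355 and 9.253 in NSC (change -0.27, SE 0.07, adjusted p = 0.039). The 95% intervals of the 2 changes, -0.69 to -0.39 for SMC4 and -0.43 to -0.10 for SMC2, overlapped, and the difference between them was not tested. MKI67, the Ki-67 antigen that coats mitotic chromosomes, had 10.94, 10.96 and 10.98 in shBRG1, against 11.47, 11.48 and 11.42 in NSC (change -0.50, SE 0.06, adjusted p = 0.0024). TOP2A, the topoisomerase that untangles sister chromatids, had 10.96, 10.83 and 10.87 in shBRG1, against 11.14, 11.14 and 11.12 in NSC (change -0.25, SE 0.07, adjusted p = 0.042). Omitting any single array ended the calls of SMC2 (adjusted p 0.058 to 0.12) and TOP2A (0.060 to 0.12), as did centring, whereas SMC4 and MKI67 kept theirs. KIF4A, a motor that works with condensin on the chromosome axis, had a change of -0.14 (adjusted p = 0.26).

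The genes that encode the MuvB, B-MYB and DREAM proteins, which act on TTTGAA promoters, had 8 measured members, of which 2 fell and 1 rose. These are 25.0% lower and 12.5% higher, beside 7.19% and 9.78% over all genes. TFDP1, the dimerisation partner of E2F factors, had 6.78, 6.85 and 6.93 in shBRG1, against 7.75, 7.76 and 7.91 in NSC (change -0.96, 1.94-fold lower, adjusted p = 0.00051). RBL2, which encodes the pocket protein p130 of the DREAM repressor, rose, with 8.16, 8.05 and 7.99 in shBRG1, against 7.49, 7.53 and 7.53 in NSC (change 0.55, adjusted p = 0.0028). RBL1, which encodes p107, fell, with 7.41, 7.53 and 7.47 in shBRG1, against 7.86, 7.90 and 7.80 in NSC (change -0.38, adjusted p = 0.0091). The 2 pocket-protein genes thus moved in opposite directions, each on all 3 arrays.

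Over the 65 measured pathway genes outside the 47, 21 were called lower, 8 higher and 36 neither, with a median change of -0.08. Falls numbered 13 without shBRG1 replicate 3, and rises 4 or 5 without any 1 of the 6 arrays. The 16 measured DNA replication genes, a list of another cell cycle phase, had a median of 0.10, with 3 lower and 5 higher (3 higher without shBRG1 replicate 2 or 3 or NSC replicate 1 or 2). PCNA, the sliding clamp (-0.53), and MCM6 (-0.47) were among the lower ones and GINS1 (0.43) among the higher ones. Called lower were 40.0% of the members, 32.3% of the other pathway genes and 18.8% of the replication genes, beside 7.19% over all genes. Called higher were 2.86%, 12.3% and 31.25%, in the same order, beside 9.78% over all genes. The shares over all genes include 7441 genes dimmer than the median gene, and no gene of these lists is among those. With those left out, 16 members, 22 other pathway genes and 5 replication genes were lower, beside 1224 of all remaining genes. Higher were 1, 9 and 6, in the same order, beside 1977. Over the remaining genes both shares are larger than 7.19% and 9.78%. Differences between the lists were not tested.

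**Figure D4:**
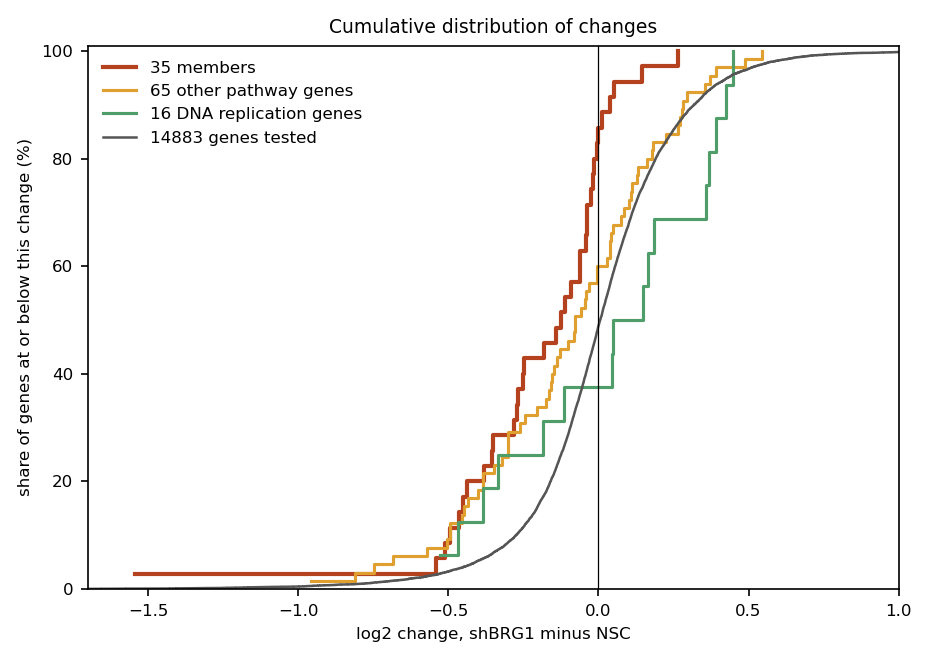
Cumulative share of genes, in percent, at or below each log2 change (shBRG1 minus NSC) for the 35 members, 65 other pathway genes, 16 DNA replication genes and all 14883 genes tested. The curve of the members lies left of that of all genes (medians -0.12 and 0.01), and its lower end is CENPN alone at -1.54.

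The protein-coding neighbours of the 15 called members on the chromosome were also read, a comparison added after the values were seen. Of 30 neighbours 19 were measured, with 3 lower, 2 higher and 14 neither (26.3% called, beside 17% of all genes). CMC2, which lies before CENPN and encodes a mitochondrial protein of cytochrome oxidase assembly, had 9.83, 9.86 and 9.82 in shBRG1, against 10.24, 10.12 and 10.20 in NSC (change -0.35, adjusted p = 0.011). ATMIN, on the other side of CENPN, had a change of -0.23 (adjusted p = 0.068). Both were lower on all 3 shBRG1 arrays, by less than CENPN. CENPH, which rose, is next to CCNB1, which fell, and NUSAP1 is next to OIP5, a CENP-A loading factor that also fell (-0.45, adjusted p = 0.025), a call lost without any 1 of the 3 shBRG1 arrays (adjusted p up to 0.080). PPWD1, next to CENPK (0.38, adjusted p = 0.016), and MGMT, next to MKI67 (0.31, adjusted p = 0.024), rose.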

How the data were processed

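Total RNA from 3 shBRG1 and 3 NSC samples, grouped by their lentivirus label, was labelled with the GeneChip WT kit and hybridised to 1 array each, per the labels' protocols. Each deposited value is a probe set's log2 expression. The submitters' processing notes name R 3.1.0, oligo 1.27, limma 3.19 and RMA, and the log2 scale was read from the range of the values (1.19 to 13.8). RMA sets arrays to a common distribution, which hides any change common to every gene. The sources used here do not give a genome build for the probes. No values from scanner files or detection calls were used, and the number of arrays limits the precision (median SE of a change 0.09).

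A platform annotation gave 15828 of 52299 probe sets 1 gene symbol, 0 several and 36471 none, and symbols were updated by gene identifier through the GRCh38.p14 gene table (15828 matched). The brightest probe set of a gene by mean of 6 arrays was kept (14883 genes, 945 probe sets set aside). The test was limma's (version 3.58.1, R 4.3.3, lmFit then eBayes, two-sided, without covariates), with p-values adjusted over all genes and a threshold of 0.05. With 3 samples a group, the smallest p of an exact permutation test is 0.1. The script was tested on simulated data, where limma recovered 70 of 100 genes changed by 0.5 log2 units and 99 of 100 changed by 1. Of its 185 calls, 16 were false. Fewer genes were changed there than were called here, so these rates cannot be carried over to the members.

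The members, lists and tests were chosen with earlier results of these data known. Every member is named, with values on each array for those past the threshold and for the leading member of groups without one, and further members whose values help the comparison were chosen after their values were seen. Of each list of other pathway or replication genes, up to 3 with the smallest p are named with values, and AURKB stands under that rule. Further genes of these lists are named where their calls ended under an alternative or where they lie next to a member. Promoters and neighbours were added after the values were seen. Alternatives were median centring, cyclic loess, leaving out dim genes, averaging probe sets, trend and robust options, array weights, a replicate block, a fit on every probe set, omission of single arrays and an adjusted p of 0.01. Python 3.11.15 and matplotlib 3.10.9 drew the figures.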

Additional observations from a re-analysis of the deposited data

How the results depend on the processing

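Among the 35 measured members, 14 were lower and 1 was higher in shBRG1 in the deposited values. The count of lower members was 8 with the replicate block and with every probe set tested, 7 at an adjusted p of 0.01, and between 9 and 10 without any 1 array. Over all genes the count lower was 1070 in the deposited values, 738 with the replicate block and 589 with every probe set tested. The count of lower members lay between 10 and 16 under the other alternatives. The count of higher members was 0 after median centring, after cyclic loess, with the replicate block, with every probe set tested and at an adjusted p of 0.01, with 1 at an unadjusted p under 0.05 in each, and 0 to 0 without any 1 array. With trend and robust options it was 2 (CENPH and STAG2). The median change was -0.19 after cyclic loess and lay between -0.16 and -0.10 under the other alternatives, against -0.12 in the deposited values.

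Of the 65 other pathway genes, 21 were lower and 8 higher. Lower genes numbered 13 with every probe set tested, 12 at an adjusted p of 0.01 and 13 to 19 without any 1 array. Higher genes numbered 5 after cyclic loess, 4 with the replicate block and with every probe set tested, 2 at an adjusted p of 0.01 and 4 to 5 without any 1 array. Deviations of same-numbered arrays from their group means correlated at -0.04, -0.14 and -0.03, so no shared replicate effect was seen. With 3 arrays a group, these values cannot tell whether same-numbered samples were handled together. With the block, CENPH, BUB3, INCENP, CDCA8, SGO2, SMC2 and TOP2A were not past the threshold, and the same 7 were not past it with every probe set tested, where p-values were adjusted over 52299 probe sets. CENPO passed after cyclic loess, with dim genes left out, with trend and robust options and with array weights, and ESPL1 after cyclic loess and with dim genes left out. No member's change was reversed at a called value. Averaging probe sets altered no call, since each measured member has 1 probe set. Groups of 3 arrays were too small for a search for single outlying arrays.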
